A study of Homo sapiens with 6 samples.

Results

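The DEAD-box and DEAH-box proteins are RNA helicases that use ATP to unwind RNA duplexes or to move proteins off RNA, and they take their names from a short run of amino acids at the ATP-binding site. DEAD-box members separate short duplexes locally, whereas DEAH-box members mostly travel along a strand, and between them they serve splicing, ribosome assembly, mRNA export, translation and decay. DDX3X, an X-linked DEAD-box protein with a role in translation initiation, is mutated in medulloblastoma (MB), and its level was lowered or raised in these cells. The question addressed here was whether the mRNAs of the other helicases followed DDX3X or moved against it.

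Members were the genes with a symbol made of DDX or DHX and a number, apart from DDX3Y and the symbols of DDX11 pseudogenes, that reached 1 RPKM in any library. RPKM is the number of reads per kilobase of transcript, scaled to a library of 1000000 reads. Of 57 symbols of this form, 2 were left out by name and 7 stayed under 1 RPKM in every library, which left 48 members, 33 DDX and 15 DHX, among 23204 gene symbols. The 47 members other than DDX3X are called the helicases in what follows. The name does not always give the function: DDX26B is a relative of a subunit of the Integrator complex, and DDX11 is a DNA helicase. The lowest member was DDX58, the RNA sensor RIG-I, with 1.08 RPKM in its highest library, and the highest gene below the limit was DDX60, an interferon-induced relative, with 0.373 RPKM. The other genes below the limit were DHX58, which also acts in RNA sensing, the germline genes DDX4, DDX25, DDX43 and DDX53, and DDX60L.

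Total RNA came from HEK293T, a human embryonic kidney line that carries the SV40 large T antigen. In the plasmid arm, 4 cultures were transfected with 5 µg of plasmid, which coded for GFP without a fusion partner (GFP), GFP-tagged wild-type DDX3X (WT) or the GFP-tagged MB-associated mutants T275M and G302V, and GFP-positive cells were sorted after 32 h. The deposited treatment text also gives a shorter time for the plasmid arm, and 32 h is the time in the study's methods. In the siRNA arm, 2 cultures received a control siRNA or an siRNA against DDX3X (DDX3X siRNA) for 48 h, with no sort described. Every group held 1 library, so no difference has a replicate check and no test between conditions was possible. Intervals in parentheses after a log2 ratio are 95% exact counting intervals, which cover only the sampling of reads in those 2 libraries.

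Depth recovered from the values was about 43720000 to 67520000 reads in 5 libraries and 180870000 in DDX3X siRNA. The labels call the cells neuronal as well as HEK293T. Of 12 neuronal markers, 5 were at 1 RPKM or more in every library (GAD1, NEFL, NEFM, SYP and TUBB3), and RBFOX3, MAP2, SYN1, DCX, ELAVL4 and SLC17A7 were under 1 RPKM in all 6. The remaining marker, SNAP25, was at 1.38 RPKM in WT and 1.22 in T275M and under 1 RPKM elsewhere. The summed level of the 12 ranged from 642.5 to 839 RPKM. Nearly all of it came from NEFM and NEFL, at 683 and 140 RPKM in GFP. Of 10 kidney epithelium markers, 3 were at 1 RPKM or more throughout (KRT8, KRT18 and LRP2), with sums of 47.4 to 63.0 RPKM. None of 3 white blood cell markers and 1 of 3 fibroblast markers, COL1A1, reached 1 RPKM in every library, with sums of 0.021 to 0.0842 and of 2.33 to 5.79 RPKM. In bulk RNA, fewer cells of a type and less RNA per cell cannot be told apart.

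The stretch of coding sequence behind the family name shows how the members are related. It was read from GENCODE transcripts on GRCh37, the build of the deposited tables, and each window below has the 4 codons of the motif in capitals with 9 bases on either side, written 5′ to 3′ on the coding strand. The first 3 windows belong to DDX3X and to the abundant transcription and processing helicases DDX5 and DDX17, and the others to helicases that moved against DDX3X in several comparisons or, in the case of DDX50, changed otherwise than its paralog DDX21.
DDX3X, chrX:41204437-41204466, plus strand, exon 11 of 17: ttggtgttaGATGAAGCTGATcggatgttg
DDX5, chr17:62499354-62499383, minus strand, exon 7 of 13: cttgtccttGATGAAGCAGATagaatgctt
DDX17, chr22:38890939-38890968, minus strand, exon 7 of 13: cttgtattgGACGAAGCTGACagaatgctt
DDX46, chr5:134126192-134126221, plus strand, exon 13 of 23: gttgttttaGATGAAGCAGACagaatgttt
DDX21, chr10:70726875-70726904, plus strand, exon 6 of 15: gttgtcctgGATGAAGTGGACcagatgttg
DDX50, chr10:70673248-70673277, plus strand, exon 6 of 15: gttgtgcttGATGAAGTGGATcagatgtta
DHX37, chr12:125455905-125455934, minus strand, exon 8 of 27: gtgatcatcGACGAGGCCCACgagaggagc
DHX33, chr17:5365717-5365746, minus strand, exon 3 of 12: gtcattttgGATGAAGCTCACgaacggact
DHX34, chr19:47858416-47858445, plus strand, exon 3 of 17: ctgattgtgGATGAAGTCCATgagcggcat
By name, the DEAD motif was found in 26 of 33 DDX members and the DEAH motif in 8 of 15 DHX members, against 0.858% and 0.398% of 19575 coding sequences. The 26 include DDX26B, the relative of an Integrator subunit, with its match at codon 633 of 898. DDX11 was the 1 DDX member with DEAH, and the match to DEAD in DHX29 did not follow hydrophobic codons as the others did. Variant forms were searched only in members without a match to DEAD or DEAH, so not in DHX29. DDX21 and DDX50, DHX34 and the remaining members apart from DHX32 carried a variant form of the motif. No form searched was found in DHX32. The window of DDX19A was identical to that of DDX19B. No helicase shared a stretch of 50 transcript bases with DDX3X, so its raised or lowered reads had no identical stretch of that length to fall on.

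The level of DDX3X checked the labels as far as whether it was raised or lowered, not which form was expressed. The study's own description of its plasmid RNA-seq names another mutant in place of T275M, and the labels were followed here. The DDX3X level was 119 RPKM in GFP, 2894 in WT, 3279 in T275M, 1906 in G302V, 107 in control siRNA and 31.3 in DDX3X siRNA. DDX3X siRNA left it -1.74 (-1.76 to -1.72) on the log2 scale against control siRNA, and the plasmids put it at 4.60 (WT), 4.78 (T275M) and 3.99 (G302V) against GFP. DDX3X reads made up 1.56%, 1.77% and 1.03% of all reads in WT, T275M and G302V and 0.0640% in GFP. All log2 ratios are differences of log2(RPKM + 1).

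The helicase mRNAs mostly stayed within 1.5-fold across the libraries. Averaged over the 6 libraries, their levels ran from 0.820 RPKM (DDX58) to 338.5 RPKM (DDX39B) with a median of 33.3. At 100 RPKM or more stood 7 of them. These were DDX39B, an export and splicing factor also known as UAP56, DDX5 and DDX17, DDX21 of the nucleolus, DHX9, which unwinds RNA and DNA in transcription, DDX1, which works in the tRNA ligase complex, and DHX15, which takes spliceosomes apart. A further 36 lay between 10 and 100 RPKM, and 4 were lower. DDX39B stood at 373 RPKM in GFP, 373 in WT, 347 in T275M, 309 in G302V, 348 in control siRNA and 281 in DDX3X siRNA, lowest in DDX3X siRNA. These values are from a row for a non-coding transcript of the gene. Its coding rows had 283 and 295 RPKM in GFP and 213 and 221 in DDX3X siRNA, with the same siRNA ratio of -0.31. For DDX5 the levels were 215 RPKM in GFP, 204 in WT, 192 in T275M, 179 in G302V, 176 in control siRNA and 159.7 in DDX3X siRNA, highest in GFP. Of the 47 helicases, 21 had a highest library under 1.2 times the lowest, 23 lay from 1.2 to 1.5 times, and 3 exceeded 1.5 times. GFP was the highest library for 20 of them and the lowest for none. DDX3X siRNA was the lowest for 25 and the highest for 4. Neither these counts nor those of the ratios were made over all genes, so they do not set the helicases apart.

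**Figure D1:**
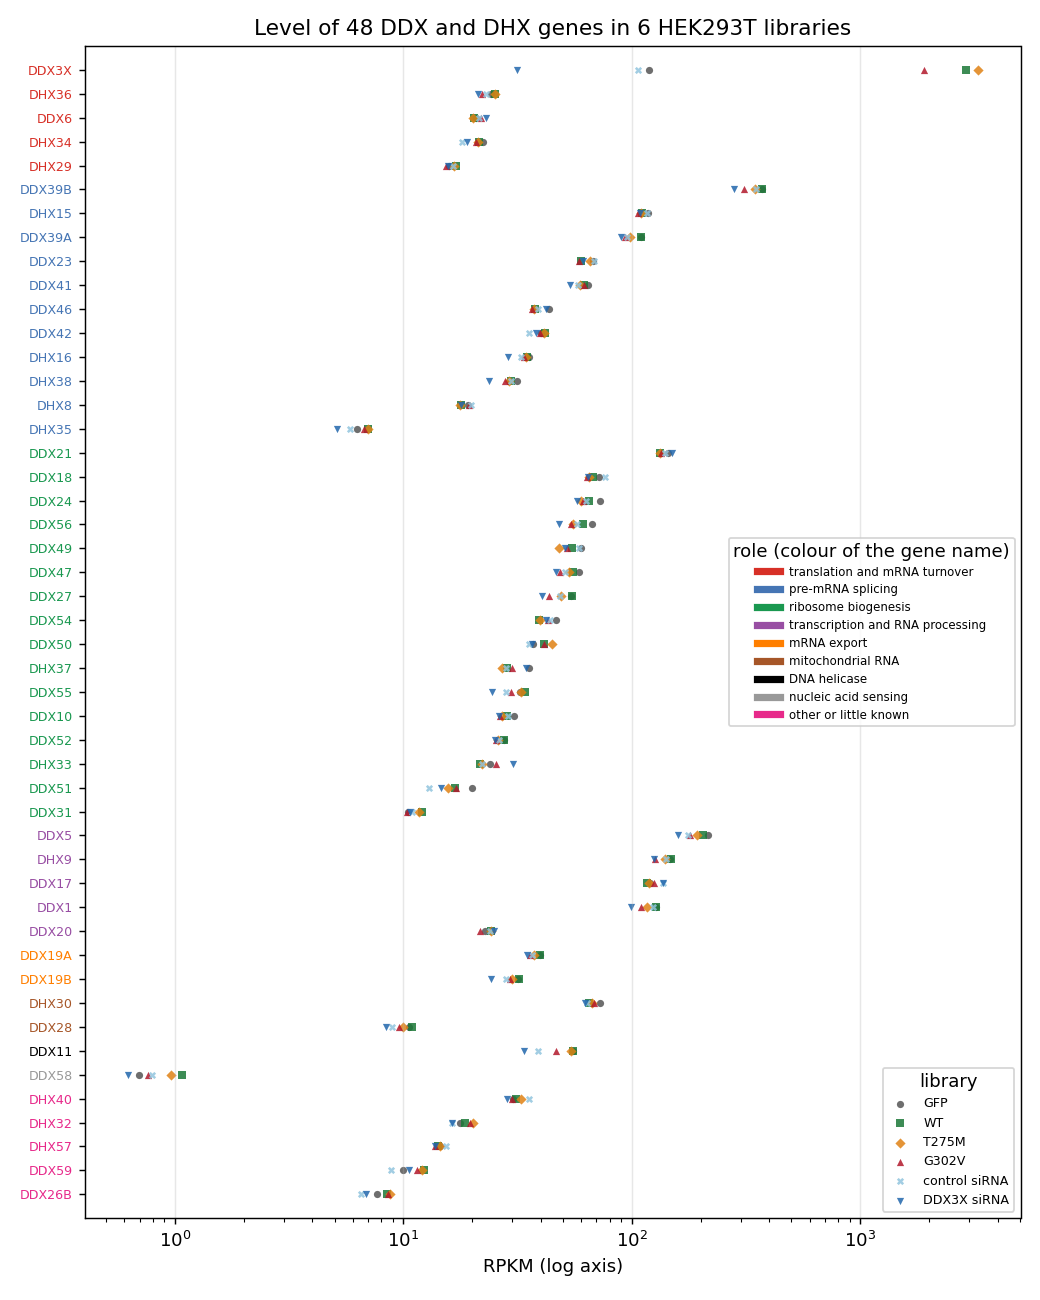
Level of each of the 48 members in the 6 libraries (RPKM, log axis), 1 point per library, with gene names coloured by role and ordered by mean level within a role. DDX3X spans 31.3 to 3279 RPKM, while the points of most other members lie close together.

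After DDX3X knockdown, the other helicases were on the whole slightly lower, and none came near the change of DDX3X. The median log2 ratio of the 46 helicases tested was -0.11, against -0.024 for all 12694 genes tested and -0.031 for the 7112 of 10 RPKM or more. No helicase was 1.5-fold or more higher or lower, where 1.04% of all genes were higher and 0.961% lower by that much. Counting intervals lay above 0 for 10 helicases and below 0 for 30, where 32.8% and 40.1% of all genes did and 35.2% and 45.7% of the genes of 10 RPKM or more, whose intervals are narrower. At 10 RPKM or more, 10 of 43 helicases had intervals above 0 and 29 below. The lowest ratios belonged to DDX1, DHX40 and DDX39B. DDX1 had 98.8 RPKM against 123 in control siRNA, a log2 ratio of -0.32 (-0.34 to -0.30). DHX40, a DEAH-box protein of little known function, had 28.5 against 35.6 RPKM, or -0.31 (-0.35 to -0.28), and DDX39B was -0.31 (-0.33 to -0.29). At the other end stood 2 nucleolar helicases that act on the ribosome's precursor RNA. DHX33 had 30.1 RPKM in DDX3X siRNA against 22.2 in control siRNA, a log2 ratio of 0.42 (0.39 to 0.46) above 96.6% of all genes. DHX37 followed with 34.3 against 28.1 RPKM, or 0.28 (0.24 to 0.31). The third highest was DDX59, linked to ciliary signalling, at 0.24 (0.16 to 0.31).

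Expression of wild-type DDX3X moved the helicases little. Their median log2 ratio against GFP was -0.025 over 47 tested, beside 0.055 for all 12915 genes and 0.0019 for the 7154 genes of 10 RPKM or more. None passed 1.5-fold, where 2.21% of all genes did. Counting intervals were above 0 for 12 and below 0 for 21, against 41.1% and 21.3% of all genes and, of the 7154 genes of 10 RPKM or more, 2465 above and 2359 below. At 10 RPKM or more, 9 of 44 helicases were above 0 and 21 below. Under median-ratio scaling of the libraries 5 of the 47 were above and 31 below, against 29.9% and 31.8% of all genes. DHX37 was lowest, with 28.5 RPKM against 35.6 in GFP and a log2 ratio of -0.31 (-0.35 to -0.27), above only 1.72% of all genes. DDX51 and DDX54, which act on large ribosomal subunit precursors, came next at -0.23 (-0.29 to -0.18) and -0.23 (-0.27 to -0.19). Among members of 10 RPKM or more, DDX59 was highest at 0.28 (0.18 to 0.37), followed by the nucleolar helicases DDX31 at 0.18 (0.10 to 0.26) and DDX50 at 0.16 (0.11 to 0.22). DDX58 stood at 0.29 (0.17 to 0.41) from 1.08 RPKM in WT against 0.698 in GFP. Without the added 1, its RPKM in WT was 1.55 times that in GFP, which is past 1.5-fold.

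Under the mutants the helicases sat lower against GFP. Their median was -0.086 in T275M, beside 0.070 for all 12912 genes tested and -0.0058 for the 7226 of 10 RPKM or more, with intervals above 0 for 10 of 46 helicases and below 0 for 27, where 44.2% and 23.4% of all genes lay and 35.1% and 37.1% of those of 10 RPKM or more. Median-ratio scaling gave 5 above and 33 below in T275M, where 34.6% and 31.3% of all genes lay. In G302V the median was -0.12, beside 0.025 for all 12775 genes tested and -0.033 for the 7111 of 10 RPKM or more, with 7 of 46 above and 33 below, where 35.1% and 26.3% of all genes lay and 29.0% and 40.9% of those of 10 RPKM or more. At 10 RPKM or more, 8 of 44 helicases lay above 0 and 27 below in T275M, and 6 and 33 of 44 in G302V. Again no helicase passed 1.5-fold in either, where 2.64% (T275M) and 1.77% (G302V) of all genes did. T275M had its lowest ratios in DHX37 at -0.38 (-0.43 to -0.33), DDX51 at -0.33 (-0.39 to -0.27) and DDX49, a nucleolar helicase, at -0.31 (-0.36 to -0.25). DDX50 was highest there at 0.27 (0.22 to 0.33), with DDX59 at 0.26 and DHX32 at 0.19. In G302V the lowest were DDX27 at -0.31 (-0.36 to -0.26), DDX56 at -0.31 (-0.35 to -0.26) and DDX47 at -0.28 (-0.34 to -0.22), all of ribosome assembly. Among members of 10 RPKM or more, the highest were DDX59 at 0.19, DDX50 at 0.16 and DHX32 at 0.14, and DDX26B, from under 10 RPKM, stood at 0.15 (0.054 to 0.24). The 3 plasmid comparisons share the GFP library, so its sampling enters each of them.

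**Figure D2:**
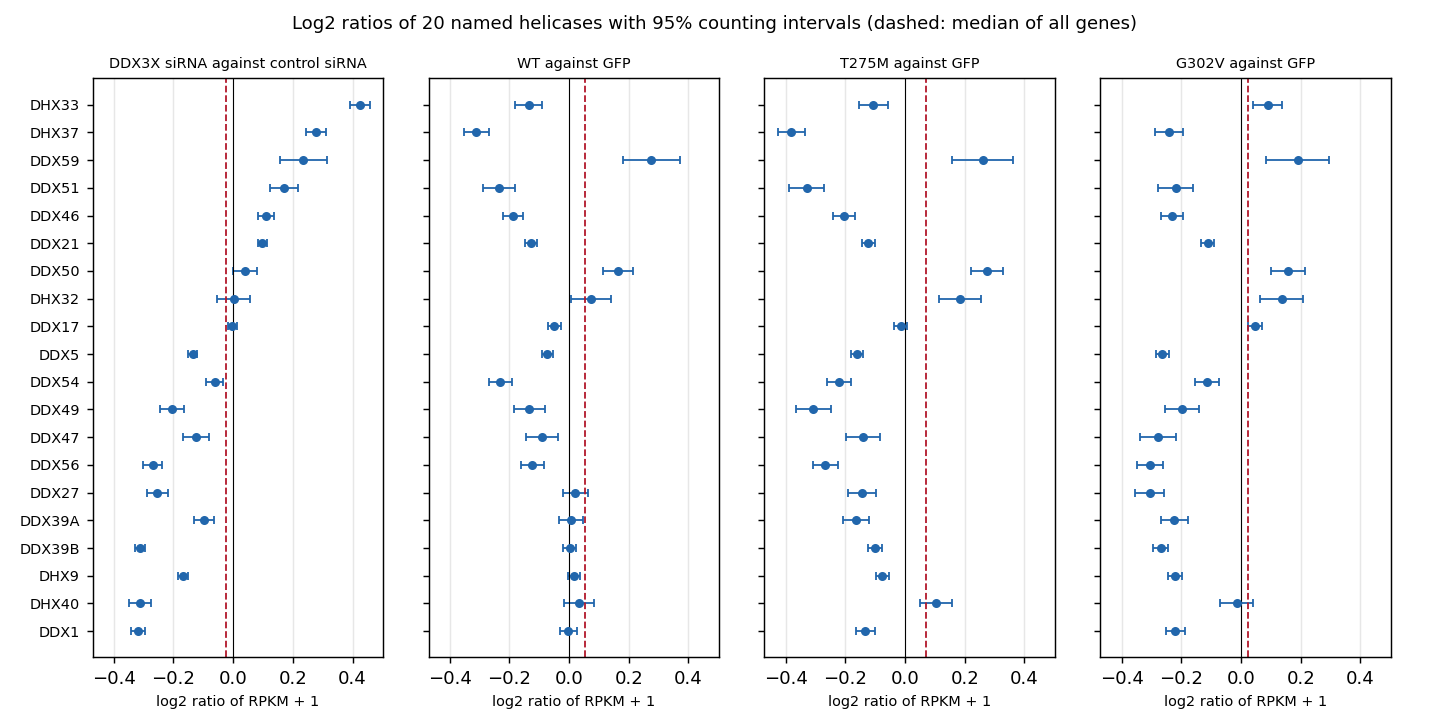
Log2 ratios (differences of log2 RPKM + 1) of 20 named helicases in the 4 comparisons with a control, with 95% counting intervals as horizontal lines and the median of all genes as a dashed line. DHX37 lies to the right of 0 after DDX3X siRNA and to the left in all 3 plasmid comparisons, and DDX59 lies to the right throughout.

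The mutants were also set directly against wild type. T275M had a helicase median of -0.026 over 47, beside 0.0046 for all 12973 genes tested and -0.014 for the 7228 of 10 RPKM or more, with 6 intervals above 0 and 19 below, where 24.0% and 20.5% of all genes lay and 23.6% and 30.1% of those of 10 RPKM or more. Its lowest ratios were DDX49 at -0.17 (-0.23 to -0.12), DDX39A at -0.17 (-0.21 to -0.13) and DDX27 at -0.17 (-0.21 to -0.12), and its highest were DDX23 of the spliceosome at 0.12 (0.08 to 0.16), DHX32 and DDX50. In G302V the median was -0.082, beside -0.034 for all 12967 genes tested and -0.039 for the 7260 of 10 RPKM or more, with 7 intervals above 0 and 27 below, where 26.2% and 35.8% of all genes lay and 28.8% and 42.3% of those of 10 RPKM or more. Under median-ratio scaling 10 lay above and 21 below, where 32.0% and 28.8% of all genes did. DDX27 was lowest at -0.33 (-0.38 to -0.28), with 43.6 RPKM against 54.96. DDX39B followed at -0.27 (-0.29 to -0.25) and DHX9 at -0.24 (-0.26 to -0.21). DHX33 was highest at 0.22 (0.18 to 0.27), and DDX54 and DHX8, which releases spliced mRNA, came after it at 0.12 and 0.11. DDX3X itself was -0.60 in G302V and 0.18 in T275M against WT. At 10 RPKM or more, 6 of 44 helicases lay above 0 and 19 below in T275M, and 7 and 26 of 44 in G302V. None of the helicases passed 1.5-fold in either comparison, where 0.347% (T275M) and 1.76% (G302V) of all genes did.

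The 2 controls also differed from each other. GFP against control siRNA gave a helicase median of 0.099, beside 0.0093 for all 12730 genes tested and 0.031 for the 7044 of 10 RPKM or more, with 32 of 46 intervals above 0 and 7 below, where 33.2% and 31.3% of all genes lay and 41.8% and 30.7% of those of 10 RPKM or more. At 10 RPKM or more, 30 of 43 helicases lay above 0 and 7 below. With 1 added to each RPKM, DDX51 was the only helicase past 1.5-fold in any comparison. It had 19.99 RPKM in GFP against 12.9 in control siRNA, a log2 ratio of 0.59 (0.54 to 0.65), where 2.33% of all genes passed 1.5-fold. With a pseudocount of 10 in place of 1, DDX51 no longer passed it. DDX11 was next at 0.49 (0.46 to 0.53) and DHX37 after it at 0.33 (0.29 to 0.37). DDX11 shares 31.4% of its 50-base stretches with the pseudogene DDX12P, which read 23.7 RPKM in GFP and 15.9 in control siRNA, so reads of these loci may not be told apart. At the low end stood DHX40 at -0.22 (-0.27 to -0.18), DDX17 at -0.18 (-0.20 to -0.16) and DDX18, a ribosome assembly helicase, at -0.082 (-0.11 to -0.052). Plasmid and siRNA delivery, the sort and the time of harvest all differ between these controls and cannot be told apart.

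No helicase followed DDX3X in all 4 comparisons with a control, and 5 went against it. Following here means a counting interval below 0 after DDX3X siRNA and above 0 with every plasmid, and opposing the reverse. Of 46 helicases tested in all 4, 0 followed, where 5.32% of 12494 genes did, and 5 (10.9%) opposed, where 2.79% did. Over the 44 helicases and 7559 genes of 10 RPKM or more, the shares were 0 against 4.10% and 11.4% against 4.46%. Under median-ratio scaling 0 still followed and the same 5 opposed, where 3.01% and 5.46% of all genes did. The nearest to following was DHX35 of the spliceosome. DHX35 had 6.28 RPKM in GFP, 7.02 in WT, 7.01 in T275M, 6.75 in G302V, 5.86 in control siRNA and 5.10 in DDX3X siRNA, lowest in DDX3X siRNA, and its interval crossed 0 in G302V alone, at 0.09 (-0.018 to 0.20). The 5 that opposed were DDX21, DDX46, DDX51, DHX34 and DHX37.

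Each plasmid was also set beside the siRNA comparison on its own, which shares no library with it. With WT, 4 helicases followed DDX3X (DDX55, DHX29, DHX35 and DHX36; 8.70%, where 17.0% of genes did) and 6 opposed it (13.0%, where 8.72% did). With T275M, 3 followed (DHX29, DHX35 and DHX40; 6.52%, where 15.5% did) and 6 opposed (13.0%, where 6.88% did). With G302V, 0 followed, where 7.31% of genes did, and 6 opposed (13.0%, where 4.21% did). DHX33 was the sixth that opposed with WT and T275M, and DDX20, the Gemin3 subunit of the SMN complex, the sixth with G302V. Most helicases did neither: the commonest pattern was to be lower in both arms. That held for 14 helicases with WT (30.4%, where 9.03% of genes did), 21 with T275M (45.7%, where 12.2% did) and 26 with G302V (56.5%, where 17.2% did). Shares over genes of 10 RPKM or more, whose intervals are narrower, were not taken for these single-plasmid patterns. For the pattern of being lower in all 4 comparisons, the share rose from 7.04% of all genes to 11.3% at 10 RPKM or more. Across the helicases the siRNA and plasmid ratios had a Pearson r of -0.078 for WT, 0.088 for T275M and 0.45 for G302V (n = 46 genes), beside -0.13, 0.050 and 0.34 over all 12493 genes apart from DDX3X. Genes of 1 library share its depth and are not independent, so these are descriptions only.

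**Figure D3:**
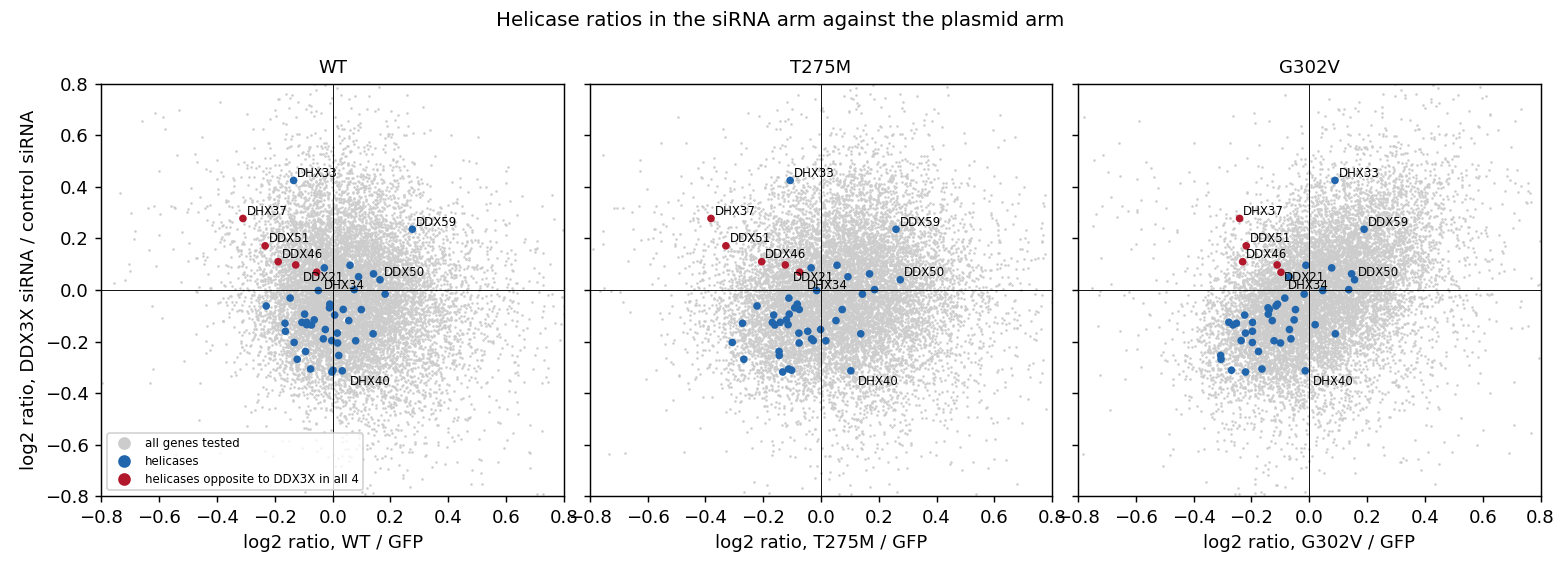
Log2 ratio in the siRNA arm against that in the plasmid arm, 1 panel per plasmid, for all genes tested (grey), helicases (blue) and the 5 helicases opposite to DDX3X in all 4 comparisons (red). Axes run from -0.8 to 0.8 and leave out DDX3X and genes beyond. The red points lie in the upper left of each panel, and most blue points below 0 on the vertical axis.

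DHX37, which helps to release U3 RNA during small subunit assembly, had the widest opposing pattern. Its levels were 35.6 RPKM in GFP, 28.5 in WT, 27.1 in T275M, 30.00 in G302V, 28.1 in control siRNA and 34.3 in DDX3X siRNA. GFP and DDX3X siRNA were thus the high libraries, and control siRNA lay with the 3 DDX3X plasmids. The most abundant neuronal marker, the neurofilament gene NEFM, had 683 RPKM in GFP, 514 in WT, 529 in T275M, 611 in G302V, 519.8 in control siRNA and 609.7 in DDX3X siRNA. It too was higher in GFP and DDX3X siRNA than in WT, T275M and control siRNA, as was NEFL, with G302V among the high libraries for both. The other neuronal markers at 1 RPKM or more in every library did not share this. SYP was lowest in GFP, with log2 ratios of 0.42 in WT, 0.39 in T275M and 0.82 in G302V. GAD1 and TUBB3 were lowest in DDX3X siRNA, at -0.29 and -0.22 against control siRNA. SNAP25 was 1.09 in WT and 0.99 in T275M against GFP. Any part of these marker changes in the helicase ratios was not tested. DDX51 was 19.99 RPKM in GFP, 16.9 in WT, 15.7 in T275M, 17.1 in G302V, 12.9 in control siRNA and 14.7 in DDX3X siRNA. All 4 plasmid libraries were above both siRNA libraries, with GFP highest of the 6. DDX21, a helicase that couples RNA polymerase I transcription to rRNA processing, was 145 RPKM in GFP, 132 in WT, 133 in T275M, 134 in G302V, 139.8 in control siRNA and 149.6 in DDX3X siRNA. Its range was narrow, with DDX3X siRNA highest. DDX46, the U2 snRNP helicase PRP5, was 43.3 RPKM in GFP, 37.8 in WT, 37.4 in T275M, 36.7 in G302V, 38.9 in control siRNA and 42.1 in DDX3X siRNA. DDX46 was high in GFP and DDX3X siRNA and lower in the other 4. DHX34, which acts in nonsense-mediated decay, was 22.4 RPKM in GFP, 21.5 in WT, 21.2 in T275M, 20.9 in G302V, 18.1 in control siRNA and 19.00 in DDX3X siRNA. Its log2 ratios were the smallest of the 5, 0.069 (0.026 to 0.11) after siRNA and -0.055, -0.074 and -0.10 with the plasmids, and it no longer opposed DDX3X in all 4 when the reads of DDX3X were left out of the library totals. For all 5, GFP exceeded control siRNA by 0.049 (DDX21) to 0.59 (DDX51) on the log2 scale, and without GFP no plasmid comparison remains. DHX33 was 23.9 RPKM in GFP, 21.7 in WT, 22.1 in T275M, 25.5 in G302V, 22.2 in control siRNA and 30.1 in DDX3X siRNA. Here DDX3X siRNA stood alone at the top, and G302V was the highest plasmid library.

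**Figure D4:**
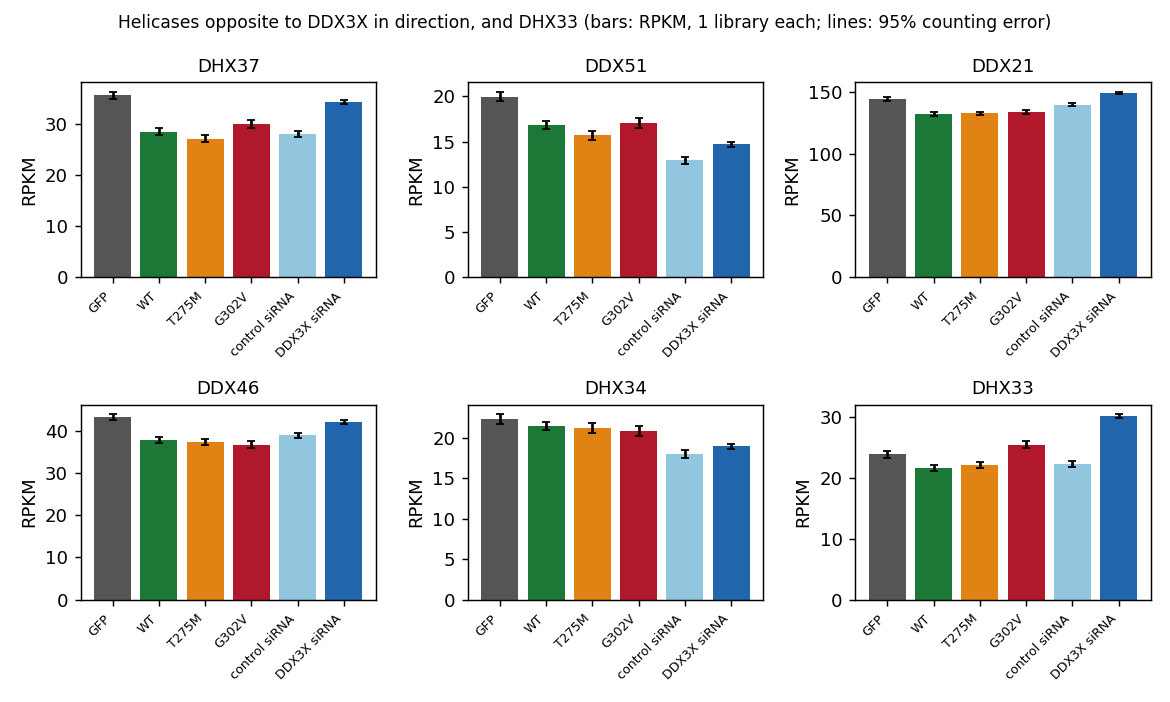
RPKM of the 5 helicases opposite to DDX3X and of DHX33 in each library (bars, 1 library each), with lines for the 95% counting error of the reads, taken as 1.96 times the square root of the count. DHX37 has tall bars in GFP (35.6 RPKM) and DDX3X siRNA (34.3 RPKM), and DHX33 in DDX3X siRNA alone (30.1 RPKM).

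Lower in all 4 comparisons were 13 helicases (28.3%, where 7.04% of genes were, or 29.5% against 11.3% at 10 RPKM or more). Under median-ratio scaling 17 were, where 8.52% of all genes were, and without the reads of DDX3X in the library totals 11 were, where 5.84% of all genes were. Of the 13, 7 serve ribosome assembly (DDX10, DDX18, DDX24, DDX47, DDX49, DDX54 and DDX56), 4 the spliceosome (DDX23, DDX41, DHX15 and DHX38), and the others are DDX5 and the mitochondrial helicase DHX30, whose ratio after siRNA changed sign under median-ratio scaling of the libraries. DDX56 had 66.96 RPKM in GFP, 61.4 in WT, 55.5 in T275M, 54.00 in G302V, 57.9 in control siRNA and 47.8 in DDX3X siRNA. GFP was its highest library and DDX3X siRNA its lowest. DDX10, whose mRNA was a non-target control in the study's binding assay, had 30.6 RPKM in GFP, 28.3 in WT, 27.1 in T275M, 26.6 in G302V, 28.7 in control siRNA and 26.2 in DDX3X siRNA. Its ratios were -0.13 after siRNA and -0.11, -0.17 and -0.20 with WT, T275M and G302V. DDX59 alone was higher in all 4, where 9.79% of genes were, or 8.07% at 10 RPKM or more, and under median-ratio scaling 3 helicases were, where 7.97% of all genes were. Its levels were 9.96 RPKM in GFP, 12.3 in WT, 12.1 in T275M, 11.5 in G302V, 8.84 in control siRNA and 10.6 in DDX3X siRNA, with the control of each arm at the bottom of that arm.

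By role, the medians of ribosome assembly helicases and of splicing helicases were below 0 in all 4 comparisons. So were those of transcription and RNA processing, of the mitochondrial helicases and of the DNA helicase DDX11. Medians of translation helicases were nearer 0 than those of ribosome assembly and splicing. For other or little known function they were at or above 0. Over all genes tested, intervals lay below 0 for 40.1%, 21.3%, 23.4% and 26.3% after DDX3X siRNA, in WT, in T275M and in G302V, and above 0 for 32.8%, 41.1%, 44.2% and 35.1%. At 10 RPKM or more, the shares below 0 were 45.7% after siRNA, 37.1% in T275M and 40.9% in G302V, with 2359 of 7154 genes in WT. The 16 ribosome assembly helicases had median log2 ratios of -0.094 after DDX3X siRNA, -0.11 in WT, -0.14 in T275M and -0.19 in G302V, with intervals below 0 for 10, 11, 13 and 13 of them and above 0 for 4, 3, 2 and 2. The 11 of splicing had medians of -0.13, -0.064, -0.11 and -0.14 in the same order, with 9, 6, 8 and 8 intervals below 0 and 2, 2, 2 and 0 above. For the 5 of transcription and RNA processing (DDX1, DDX5, DDX17, DDX20 and DHX9) the medians were -0.14, -0.0025, -0.076 and -0.22. The mitochondrial helicases DDX28 and DHX30 had medians of -0.054, -0.055, -0.093 and -0.11. DDX11 was -0.20, -0.0034, -0.027 and -0.24. The 4 of translation and mRNA turnover besides DDX3X (DDX6, DHX29, DHX34 and DHX36) had -0.0038, 0.013, 0.0090 and -0.073. DDX6, the decapping and P-body helicase, ranged only from 20.3 RPKM in T275M to 22.9 in DDX3X siRNA. The 5 of other or little known function (DDX26B, DDX59, DHX32, DHX40 and DHX57) had medians of 0.0012, 0.074, 0.17 and 0.14, with 2, 0, 0 and 1 intervals below 0 and 1, 3, 4 and 3 above. The export helicase DDX19A was -0.069, -0.011, -0.091 and -0.14, and DDX19B -0.21, 0.017, -0.076 and -0.10, in the same order. DHX36, which unwinds G-quadruplexes, was -0.12 after siRNA and 0.056 in WT, the latter changing sign under median-ratio scaling.

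Close relatives did not always move together. DDX21 and DDX50 are neighbouring nucleolar paralogs on chromosome 10. The DDX21 level divided by that of DDX50 was 3.93 in GFP and 3.94 in control siRNA, 4.10 in DDX3X siRNA, and 3.20, 2.97 and 3.26 in WT, T275M and G302V. The 3 DDX3X plasmid libraries lay below the other 3. Against GFP, the log2 of this quotient changed by -0.30 (-0.35 to -0.24), -0.41 (-0.46 to -0.35) and -0.27 (-0.33 to -0.21), and after siRNA by 0.057 (0.012 to 0.10). DDX50 itself was 36.8 RPKM in GFP, 41.3 in WT, 44.7 in T275M, 41.1 in G302V, 35.5 in control siRNA and 36.5 in DDX3X siRNA. DDX5 divided by DDX17 was 1.78 in GFP, 1.76 in WT, 1.61 in T275M, 1.44 in G302V, 1.28 in control siRNA and 1.17 in DDX3X siRNA. DDX17 was 121 RPKM in GFP, 116 in WT, 119 in T275M, 125 in G302V, 137 in control siRNA and 137 in DDX3X siRNA, with the siRNA libraries highest. DDX39A divided by DDX39B was higher in log2 by 0.21 (0.18 to 0.25) after siRNA, since DDX39A was -0.10 and DDX39B -0.31. DDX19A and DDX19B share 707 stretches of 50 bases (24.6% and 21.9% of their own), so their split is uncertain. The log2 quotient of DHX9 and DHX36 changed by -0.042 to -0.13 and that of DHX8 and DHX16 by -0.086 to 0.087 over the 4 comparisons.

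**Figure D5:**
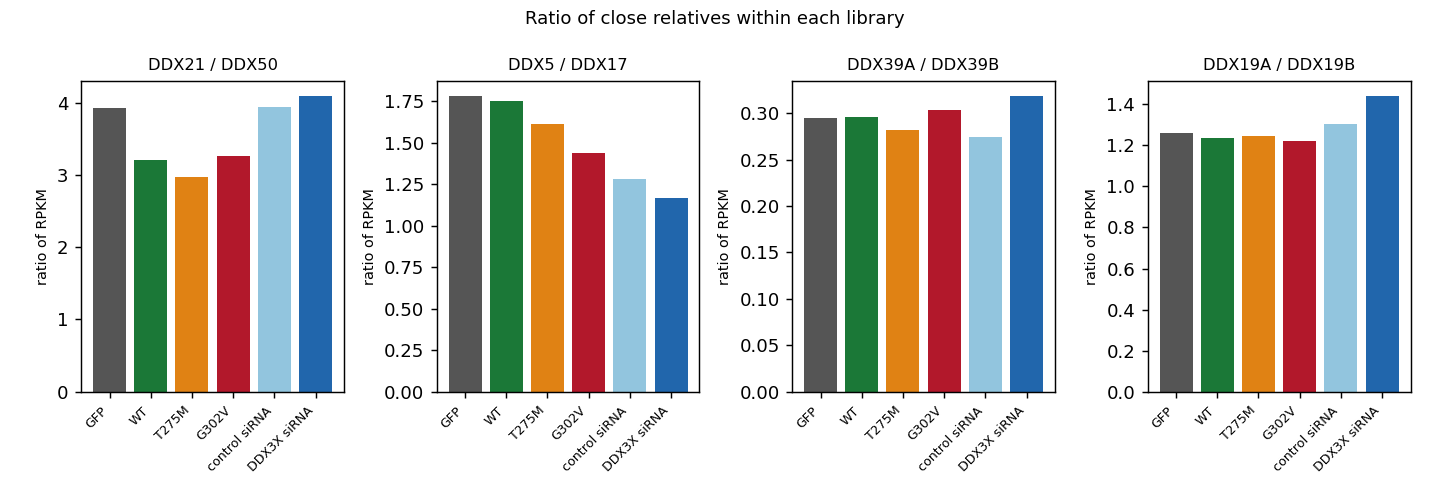
RPKM of the first gene divided by that of the second within each library, for 4 pairs of relatives (bars from 0, 1 library each). DDX21 over DDX50 falls from 3.93 in GFP to 2.97 to 3.26 with the DDX3X plasmids and stays at 3.94 and 4.10 in the siRNA libraries.

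Genes that work beside the helicases were listed by function. RNA helicases under other names (16 of 20 tested) had medians of 0.055 after siRNA, 0.021 in WT, 0.058 in T275M and 0.027 in G302V. Within them the eIF4A paralogs split: EIF4A1, the main helicase of cap-dependent initiation, was -0.31, -0.13, -0.24 and -0.28, EIF4A3 of the exon junction complex was -0.40, -0.073, -0.21 and -0.35, and EIF4A2 was 0.23, 0.085, 0.29 and 0.11. Nucleolar partners of the ribosome assembly helicases (14, among them NOP56, FBL and NPM1) had medians of -0.093, -0.11, -0.25 and -0.25, with 11, 10, 13 and 13 intervals below 0 and 3, 0, 0 and 0 above, where 40.1%, 21.3%, 23.4% and 26.3% of all genes lay below and 32.8%, 41.1%, 44.2% and 35.1% above. NOL6, of the small subunit processome in which DHX37 acts, was 0.25 after siRNA and -0.29, -0.42 and -0.15 with the plasmids. Most of the same list did not share this: FBL, NOP56, NOP58 and UTP3 were -0.22, -0.082, -0.12 and -0.082 after siRNA. UTP20 was 0.17 after siRNA but 0.019 (-0.036 to 0.073) in G302V. Partners of the splicing helicases (17) had medians of -0.23, -0.033, -0.096 and -0.16. RBM5 stood apart from them at 0.54 in WT and 0.46 in T275M, with 35.5 RPKM in GFP, 52.1 in WT and 49.1 in T275M. Partners of DDX6 (11) had medians of 0.026, 0.086, 0.11 and 0.089, and those of DDX3X in initiation (10) of -0.040, -0.058, -0.044 and -0.020, where EIF4G1 was lowest in the plasmid arm at -0.31, -0.31 and -0.22. Partners of DDX20 in the SMN complex (9) had -0.14, -0.024, -0.063 and -0.13, those of DDX1 (5) -0.18, -0.059, -0.11 and -0.19, and those of DDX19 (5) -0.15, 0.045, -0.026 and 0.021.

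Several members overlap other genes, and the kit is not stranded. Exons of 10 members overlap those of another gene, the longest on the opposite strand being 644 bases of DDX24 with OTUB2, 538 of DDX55 with EIF2B1 and 498 of DDX54 with CFAP73, so reads there cannot be assigned to a strand. There were 20 helicases with 2 or more transcript rows of 1 RPKM or more. All rows of a gene had the same sign in 20 of 20 after siRNA, in T275M and in G302V, and in 19 of 20 in WT, where the exception was DDX39B with a ratio near 0.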

How the data were processed

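RNA from 6 HEK293T cultures, 1 library per group, was sequenced by the authors from TruSeq RNA v2 libraries. The deposited values are RPKM (the methods of the study call them FPKM), made by the authors from reads trimmed with cutadapt, aligned with BWA 0.5.5 to NCBI Build 37, RefSeq, exon junctions and AceView, and freed of duplicates, then divided by gene length and total reads. There is 1 row per RefSeq accession (39618 rows), and the row with the highest mean RPKM stood for a symbol, so isoforms share reads. For DDX39B and DDX49 that row was a non-coding transcript.

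RPKM multiplied by length fell on whole multiples of 1 step per library (100% within 0.1 of a whole number), which gave reads and depth. At that depth 3 reads were 0.0166 to 0.0686 per 1000000. Ratios are differences of log2(RPKM + 1), which understate changes of low genes. A gene was tested at 1 RPKM or more and 10 reads or more in either library. Intervals are 95% Clopper-Pearson intervals of the share of reads, for counting error only, since reads are not independent molecules. The calculation was tested on simulated data and run with Python 3.11.15, numpy 2.4.6, pandas 2.3.3, scipy 1.17.1 and matplotlib 3.10.9. Motif windows came from GENCODE transcripts on GRCh37.

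Named members were DDX3X, the 3 highest and 3 lowest ratios per comparison among those with 10 RPKM or more in either library, members past 1.5-fold, members with or against DDX3X in all 4 comparisons with a control, members of close pairs, the 5 most abundant, and DDX10. Other members named beside a count of them, such as DDX6, DDX20, DDX26B, DDX55, DHX29 and DHX35, and single partner genes were chosen after their values were seen. The members and lists were chosen with earlier results of these data known. The alternatives were pseudocounts of 0.1 and 10, median-ratio scaling, library totals without DDX3X reads, the sum of rows, no filter beyond 1 read and a minimum of 10 RPKM. DDX3Y was not analysed here.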

Additional observations from a re-analysis of the deposited data

How the results depend on the processing

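No paired analysis was possible because each group has 1 library and the labels carry no shared replicate numbers, and no library could be left out for the same reason. Across the 7 alternatives, 169 of the values that answer a comparison stayed close to the reported ones and 6 moved, with none reversed in direction. Of the other values checked, 1661 stayed close and 169 moved. Median-ratio scaling gave medians of the helicases of -0.056 after DDX3X siRNA, -0.082 in WT and -0.14 in T275M. It left 3 helicases higher in all 4 comparisons, where 7.97% of all genes were. It moved the median of all genes by 0.051 after DDX3X siRNA, -0.061 in WT, -0.060 in T275M and -0.020 in G302V. Helicases with counting intervals above 0 became 5 in both WT and T275M under it, where 29.9% and 34.6% of all genes lay above. With a pseudocount of 10, 0 helicases passed 1.5-fold between GFP and control siRNA. Under the sum of rows 1 helicase followed DDX3X, DHX35, where 7.39% of all genes did. Rows of a gene share reads, so the interval of DHX35 is too narrow there. Without DDX3X reads in the totals, 4 helicases opposed DDX3X, where 2.22% of all genes did. Single members whose interval left out 0 changed sign only under median-ratio scaling, DHX30 after siRNA, DHX36 in WT and DDX42 in T275M. Counting intervals were narrow at these depths, and the spread between cultures of 1 group was not measured.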
